A study of Mus musculus with 6 samples.

Results

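A set of 10 growth-related imprinted genes was followed in αTC1 cells, a mouse glucagonoma line used as a model of the glucagon-secreting α-cell of the pancreatic islet. The 10 genes are Mest, Peg3, Peg10, Plagl1, Meg3, Igf2, H19, Cdkn1c, Grb10 and Dlk1, taken by symbol from the 55487 genes in the count table. Each of the 10 matched 1 gene. The list was drawn up with results of these data in view, because Mest was among the clearest decreases, so the difference between the treatments is given for the members as a description, and how many passed a threshold is stated only beside the share of all genes. The question put to the data was which of these genes the line expresses at all. For the expressed ones it was how they stood after treatment with an inhibitor of SMNDC1, a protein of the spliceosome. The 6 libraries comprised 3 from cells treated with G786-1089, labelled as the SMNDC1 inhibitor and taken to be compound 1 of the study, and 3 from cells treated with the solvent DMSO. Both groups are the same established tumour line. The study calls compound 1 non-selective, saw effects on SMN, the paralog of SMNDC1, and reports cell death after longer treatment. The part of these in the values was not tested. The column names of all 6 libraries carry WT, read here as wild type, and no genetic change is named in the labels. The labels give neither a dose nor a duration. For its cell culture work in general, the study states that a common batch of cells was divided at random among the treatments of a replicate, and that a replicate's samples were handled together. The treated and DMSO samples of a replicate may therefore share a source of cells, and whether different replicates came from separate batches is not clear from this. If they did not, the p-values measure only the spread between splits of a common batch, which may be technical. The libraries are called A, B and C within each treatment after the columns of the count table.

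Imprinted genes are transcribed mainly from 1 of the 2 parental copies, because DNA methylation laid down in the egg or sperm marks a control region near the gene. Many of them act on growth of the embryo and placenta. The paternal copy is the active one for Mest, Peg3, Peg10, Plagl1, Igf2 and Dlk1, most of which promote growth, and the maternal copy for Cdkn1c, H19, Meg3 and, in most tissues, Grb10. They lie in clusters, so that Igf2 and H19 share 1 control region, Dlk1 and Meg3 share another, and Cdkn1c sits in a neighbouring domain of the same chromosome as Igf2. Counts summed over both alleles were available, so imprinting itself was not measured here.

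Of the 10 members, 4 were silent, with no count in any of the 6 libraries, 1 was counted in a single library, and 5 had enough counts to be compared. Silent was defined as at most 3 counts in every library, a floor that equals 0.0300 to 0.0552 CPM, counts scaled to the size of the library, at these depths. The silent members were Peg10, Igf2, H19 and Dlk1. Meg3 had 166 counts in compound 1 library C and 0 in the other 5 libraries. Mest was 5.86-fold lower with compound 1, Grb10 was 3.20-fold lower, Peg3 was higher in every treated library than in any DMSO library, and Plagl1 and Cdkn1c overlapped between the treatments.

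The start sites of 4 members are shown first, because CpG dinucleotides, the bases that carry methylation, are the feature through which imprints are held, and because these 4 represent the outcomes seen: lower in every treated library (Mest, Grb10), higher in every treated library (Peg3) and silent (Dlk1). Whether a start site lies in the control region that holds the imprint of its gene was not examined. Each window holds 250 bases before and 50 bases after an annotated RefSeq start in GRCm38.p6. It is read 5′ to 3′ on the gene's strand, with every CpG in capitals.
Mest, chr6:30737800-30738099, plus strand: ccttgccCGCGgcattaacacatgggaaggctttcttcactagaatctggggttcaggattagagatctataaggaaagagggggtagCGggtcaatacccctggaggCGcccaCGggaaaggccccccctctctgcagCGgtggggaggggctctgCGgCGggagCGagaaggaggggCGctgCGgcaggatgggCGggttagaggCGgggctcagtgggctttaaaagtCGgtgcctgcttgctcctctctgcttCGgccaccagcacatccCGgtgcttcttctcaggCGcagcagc
Grb10, chr11:12037371-12037670, minus strand: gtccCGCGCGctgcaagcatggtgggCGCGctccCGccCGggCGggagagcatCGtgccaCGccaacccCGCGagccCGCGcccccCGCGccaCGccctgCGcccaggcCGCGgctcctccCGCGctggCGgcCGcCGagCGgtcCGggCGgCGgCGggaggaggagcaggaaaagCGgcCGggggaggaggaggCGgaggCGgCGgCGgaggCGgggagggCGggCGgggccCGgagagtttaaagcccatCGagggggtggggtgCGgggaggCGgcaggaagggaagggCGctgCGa
Peg3, chr7:6730370-6730669, minus strand: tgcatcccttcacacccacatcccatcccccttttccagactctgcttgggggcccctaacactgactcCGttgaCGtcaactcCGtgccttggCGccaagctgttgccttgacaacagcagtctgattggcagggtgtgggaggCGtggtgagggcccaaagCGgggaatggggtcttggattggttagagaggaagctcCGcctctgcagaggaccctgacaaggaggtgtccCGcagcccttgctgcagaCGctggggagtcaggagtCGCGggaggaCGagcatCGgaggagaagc
Dlk1, chr12:109452573-109452872, plus strand: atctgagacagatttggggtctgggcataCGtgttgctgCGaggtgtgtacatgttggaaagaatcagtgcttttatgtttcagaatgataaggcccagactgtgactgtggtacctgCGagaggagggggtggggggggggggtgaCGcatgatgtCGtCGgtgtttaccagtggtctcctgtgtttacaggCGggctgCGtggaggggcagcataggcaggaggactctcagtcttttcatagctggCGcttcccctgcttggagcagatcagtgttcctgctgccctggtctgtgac

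The Mest window held 17 CpG, the Grb10 window 45, the Peg3 window 13 and the Dlk1 window 9. Over all 32851 RefSeq promoter windows of this length the median was 7 CpG, with quartiles of 3 and 20. The Grb10 window stood at the 98.1st percentile, whereas the other 3 windows lay between the 54.2nd and the 68.6th. RefSeq gave 14 windows for 7 of the members and none was at hand for Peg10, H19 and Cdkn1c. The 4 windows of Igf2 ranged from 2 to 24 CpG, and those of Meg3 held 13 and 1. The single Plagl1 window held 26. Grb10 has a further annotated start with 9 CpG, and Mest a further one upstream with 8. Thus the silent Dlk1 and the expressed Peg3 had similar CpG counts, and the members did not share 1 class of promoter.

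**Figure D1:**
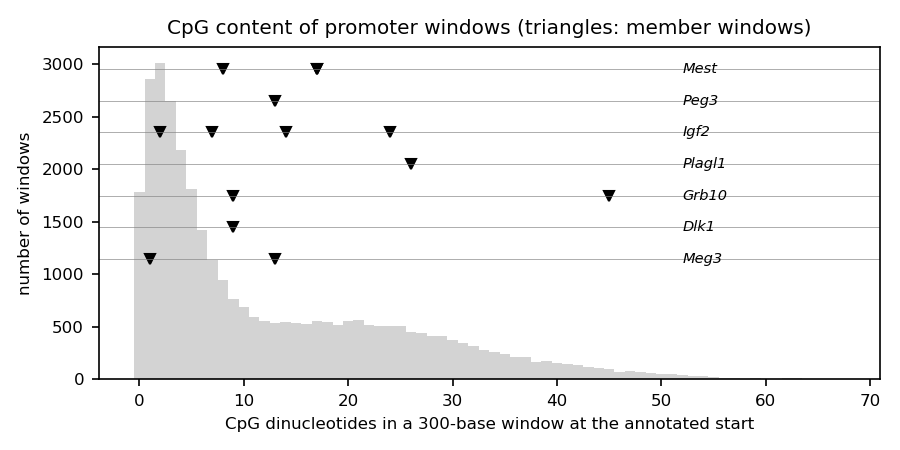
CpG dinucleotides in 300-base windows at annotated RefSeq starts (x axis, count per window) against the number of windows (y axis, grey bars, 32851 windows), with triangles for the 14 windows of 7 members, 1 line per gene. The member windows run from 1 CpG to 45, and the highest is that of Grb10.

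The letters TGCCGC, the core recognized by ZFP57, a zinc finger protein that protects imprints in the embryo, were searched on both strands. They occurred 2 times in the Mest window shown and 1 time each in the Grb10 window shown, the Plagl1 window, 1 window of Igf2 and 1 of Meg3, against 11.6% of all windows with at least 1 match. The palindrome GGGGCCCC occurred once, in the Peg3 window, and in 1.08% of all windows. These matches are descriptions of the letters. Zfp57 itself was silent in the 6 libraries.

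The libraries held 59070705 to 94747943 counts, and each of the 3 compound 1 libraries was deeper than each DMSO library. Of 15082 genes with enough counts for a test, 14.8% had an adjusted p-value under 0.05 in edgeR, 6.98% higher and 7.8% lower. These were 1053 higher and 1177 lower, against 1630 and 796 with scaling by library size only, and 1232 genes were called with a block by column letter in place of 2230. The CPM of the treated and DMSO libraries did not overlap for 36.7% of them. Markers of the α-cell were checked as the labelled identity. Of the 12 listed markers 10 were tested. The other 2, among them the α-cell gene Gc, were at 0 counts in all 6 libraries. The summed CPM of the list was 6341 to 7144 with compound 1 and 28929.5 to 31440 with DMSO, mostly glucagon (Gcg), and 5 markers fell and none rose. Summed markers of β-cells were low in both groups, at 7.19 to 13.8 CPM with compound 1 and 15.9 to 32.4 with DMSO. Acinar and duct markers summed to at most 5.77 CPM, and those of fibroblasts, endothelium and immune cells to 21.6, with Col1a2 the 1 of 2 tested that fell in edgeR. Among δ- and PP-cell markers 5 of 6 were silent, and Rbp4 rose. The part of these shifts in the values of the imprinted genes was not tested.

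Mest, at 6:30723547-30748465 on the plus strand of GRCm38, encodes an enzyme of the α/β-hydrolase fold that is known from mesoderm and from growing adipose tissue. Its counts were 9641, 14556 and 10455 after compound 1 and 46962, 48719 and 43110 after DMSO. Scaled for library size and composition (TMM), these were 128.9, 145.3 and 120.5 CPM against 772.0, 749.9 and 793.2. The 2 groups were far apart, and within each the libraries lay close together. The means were 132 ± 12.6 and 772 ± 21.6 CPM (SD, n = 3), a log2 fold change of -2.55 with a standard error of 0.09. By p-value in this fit Mest stood 2nd among the decreases, and it had been chosen for being among the clearest of them. By size of change it stood 96th of the 1177 genes called lower, and 15th of the 1061 whose log2 CPM averaged 3 or more. In bulk RNA, fewer cells with Mest RNA and less of it per cell cannot be told apart.

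In the DMSO libraries Mest was by far the most abundant member. Levels between genes were compared as FPKM, deposited values that are scaled for gene length. Mest was at 255 ± 7.75 FPKM with DMSO (SD, n = 3), 428th in order among 20806 genes with any signal in that group, and at 43.5 ± 4.42 FPKM with compound 1, where it stood 1885th. It was also the most abundant member after treatment. The 3 tested genes whose profile over the 6 libraries was nearest to that of Mest, among 7900 genes at a mean log2 CPM of 3 or above, were Sln, Tspan17 and Dnajc12. Sln encodes sarcolipin, an inhibitor of the calcium pump, and differed in log2 CPM by a Euclidean distance of 0.352 over the 6 libraries. Tspan17, a tetraspanin, followed at 0.422, and Dnajc12, a co-chaperone of the aromatic amino acid hydroxylases, at 0.452. Their log2 fold changes were -2.70, -2.66 and -2.54.

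**Figure D2:**
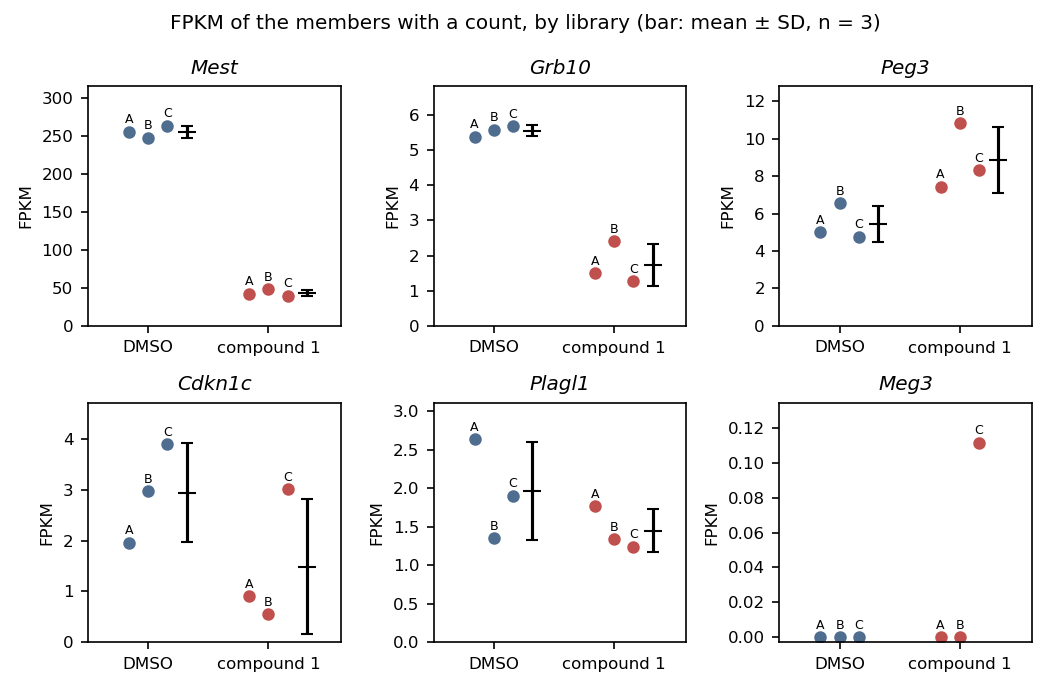
FPKM (y axes, each from 0 on its own scale) of the 6 members with any count in DMSO and compound 1 libraries A, B and C (points), with the mean ± SD of 3 libraries as a bar beside them except for Meg3. Mest and Grb10 lie lower and Peg3 higher in every treated library than in any DMSO library, Cdkn1c and Plagl1 overlap, and Meg3 is above 0 in 1 library.

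Grb10, at 11:11930508-12038683 on the minus strand, encodes an adaptor that binds the insulin and IGF1 receptors and dampens their signalling. It had 633, 1340 and 624 counts with compound 1 and 1830, 2032 and 1722 with DMSO. Every treated library was lower than every DMSO library, and library B was the highest of the treated ones. The means were 9.68 ± 3.27 and 31.0 ± 0.83 CPM (SD, n = 3), a log2 fold change of -1.68 with a standard error of 0.28. The spread among the treated libraries was thus several times that among the DMSO libraries. In FPKM Grb10 went from 5.55 ± 0.15 with DMSO to 1.73 ± 0.60 with compound 1.

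Peg3, at 7:6703892-6730431 on the minus strand, encodes a large zinc finger protein linked to growth, maternal behaviour and p53 signalling. Its counts were 5475, 10567 and 7108 with compound 1 and 2977, 4181 and 2534 with DMSO. The groups did not overlap after scaling, and in both of them library B was the highest. The means were 86.9 ± 16.7 and 53.3 ± 9.64 CPM (SD, n = 3), a log2 fold change of 0.70 with a standard error of 0.20. It was the 1 expressed member whose fitted change was positive.

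Plagl1, at 10:13060504-13131694 on the plus strand, encodes a zinc finger transcription factor that holds back cell division. It had 780, 780 and 635 counts with compound 1 and 938, 517 and 604 with DMSO. The treatments overlapped, with DMSO library A above all others. The means of 8.51 ± 1.68 and 11.5 ± 3.75 CPM (SD, n = 3) gave a log2 fold change of -0.43 with a standard error of 0.35.

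Cdkn1c, at 7:143458339-143461050 on the minus strand, encodes p57, an inhibitor of cyclin-dependent kinases whose loss causes overgrowth. It had 144, 116 and 555 counts with compound 1 and 252, 409 and 446 with DMSO. Compound 1 libraries A and B lay below all DMSO libraries, while library C lay among them. The means were 3.16 ± 2.83 and 6.21 ± 2.03 CPM (SD, n = 3), and the fitted log2 difference was -0.97 (standard error 0.71). Without compound 1 library C the log2 fold change was -2.01.

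Of the 5 tested members 2, Mest and Grb10, had an adjusted p-value under 0.05 in edgeR, both lower, beside the 14.8% of all tested genes and the 7.8% called lower. The CPM of 3 of the 5 did not overlap between the treatments, beside 36.7% of all tested genes. The cut-offs of the study, an adjusted p of 0.1 or less and a log2 difference of 1 or more in either direction, were also applied, here to the edgeR values of all tested genes and not to DESeq2 results or to spliced genes. The same 2 members passed, both lower, beside 10.4% of all tested genes (6.25% higher and 4.16% lower). Since the list was chosen on this comparison, nothing is read from these counts. The median log2 fold change of the 5 was -0.97, and that of all tested genes 0.04. The summed CPM of the members was 223 to 273 with compound 1 and 860 to 891 with DMSO, and most of it was Mest.

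The order of the members was the same at its top in both treatments and differed below it. In DMSO cells Mest was followed by Grb10 and Peg3, whose FPKM overlapped at 5.39 to 5.69 and 4.78 to 6.56. Cdkn1c at 1.96 to 3.89 and Plagl1 at 1.36 to 2.63 came next and also overlapped each other. In treated cells Peg3 at 7.44 to 10.8 FPKM stood clear below Mest at 39.6 to 48.3. Grb10 at 1.28 to 2.41, Cdkn1c at 0.550 to 3.01 and Plagl1 at 1.24 to 1.77 then overlapped one another. Ratios within a library do not depend on its depth. The FPKM ratio of Mest to Peg3 was 48.0 ± 9.08 with DMSO and 4.97 ± 0.65 with compound 1 (SD, n = 3). That of Grb10 to Peg3 was 1.04 ± 0.17 and 0.193 ± 0.035. Mest to Grb10 differed less, at 46.0 ± 1.58 and 26.4 ± 5.65, so that the 2 members lower in every treated library stood lower by unequal amounts.

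The silent members came next in the description, and for each the zero was set against what could have been counted. Igf2, a ligand of the IGF1 and insulin receptors, lies at 7:142650766-142666816 on the minus strand, and H19, a noncoding RNA that carries the microRNA miR-675, at 7:142575529-142578143 on the same strand. Dlk1, a membrane protein of the Notch ligand family, lies at 12:109452823-109463336 on the plus strand, upstream of the noncoding RNA Meg3 at 12:109541001-109571726. Peg10, a gene derived from a retrotransposon and needed for the placenta, lies at 6:4747306-4760517 on the plus strand. All 4 were at exactly 0 counts in all 6 libraries. For comparison, 60.9% of all genes and 37.1% of protein-coding genes in the table were silent by the same definition.

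Exon bases shared with another gene may have gone uncounted, which bears on these zeros. Among protein-coding genes with no exon base of their own, 175 of 178 (98.3%) were at 0 in every library. Among those whose exon bases were all their own, 38.5% of 16309 were at 0. The class of Igf2, above 10% and up to 30% of own bases, had 35.3% of 136 genes at 0. That above 30% and up to 60% had 28.6%, and that above 60% and up to 90% had 18.9%. With at most 10% of own bases, but some, it was 55.8%. Up to 90% of own bases, zeros were thus more frequent where own bases were fewer. The order did not hold beyond that. Genes above 90% but not all had 19.5% at 0, and those with all bases their own had 38.5%. The class of Igf2, at 35.3%, did not exceed the latter, and most of its genes had counts. Peg10 and Dlk1 had 100% of their exon bases to themselves, and H19 had 90.2%, so reads from these genes could have been counted nearly throughout. Igf2 had only 29.6%, because 3596 of its 5249 exon bases are shared with Gm49394, a gene model that runs over it and has no base of its own. The zero of Igf2 thus rests on 1555 bases of its own, and whether RNA from the shared bases was present was not tested.

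**Figure D3:**
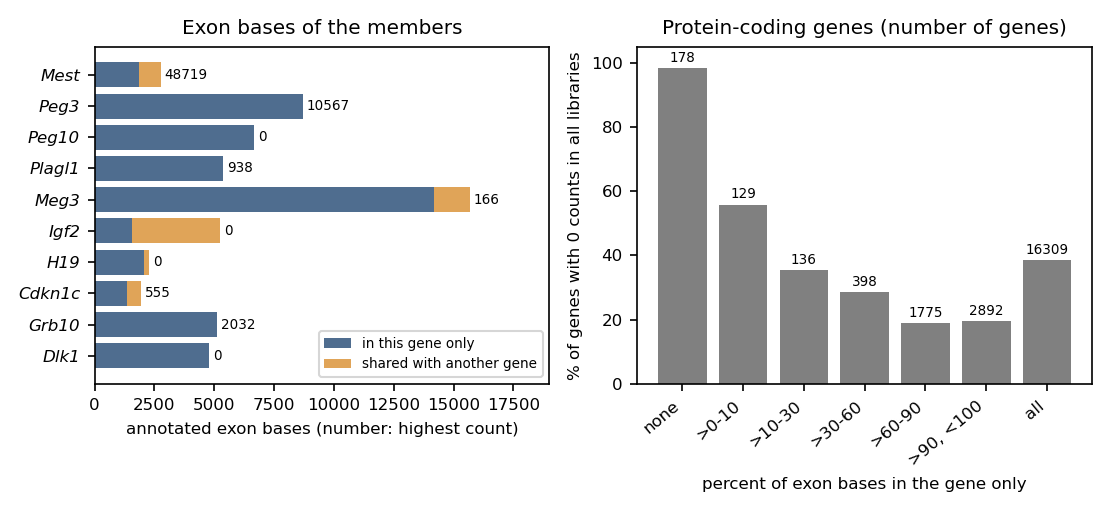
Left, annotated exon bases of the 10 members (x axis, bases), in blue those of the gene alone and in orange those shared with another gene, with the highest count in any library beside each bar. Right, percent of protein-coding genes with 0 counts in all 6 libraries (y axis) by the percent of their exon bases that are their own (x axis), with the number of genes above each bar. Igf2 has the largest shared portion among the members, and genes with no base of their own are at 0 in 98.3% of cases.

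The same overlap touched 2 expressed members. Mest shares 912 of its 2776 exon bases with Copg2, which runs tail to tail with it on the other strand, and counting ignored strand. If such bases were left out and reads were spread evenly, this would place the FPKM of Mest too low by a factor of 1.49 in every library alike. Cdkn1c shares 589 of 1942 exon bases with Gm44732, a factor of 1.435. Peg3 and Grb10 had 100% of their exon bases to themselves and Plagl1 99.3%, so these levels were not affected in this way. The shared bases were the same in every library.

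Meg3, a maternally expressed long noncoding RNA, was at 0 in 5 libraries and at 166 counts in compound 1 library C, an FPKM of 0.111. A single library carries that value, so no difference between treatments was drawn from it. The list held 6 other imprinted genes of the Dlk1 and Meg3 cluster. Rtl1, Mirg, Dio3 and Dio3os were at 0 in all libraries, Rian had 8 counts in compound 1 library A, and Begain, at the edge of the cluster, was expressed and had at most 163 counts. The library with Meg3 counts and the library with Rian counts were thus not the same one.

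Genes that adjoin or overlap the members were examined next, as far as 300 kb. Copg2, which encodes a subunit of the COPI vesicle coat and overlaps the 3′ end of Mest, had 3999, 5946 and 4482 counts with compound 1 and 3526, 4210 and 3068 with DMSO. Its CPM overlapped between the treatments, with a log2 fold change of -0.12, a standard error of 0.13 and an adjusted p of 0.62 in edgeR. The FPKM ratio of Mest to Copg2 was 18.5 ± 1.82 with DMSO and 3.42 ± 0.08 with compound 1 (SD, n = 3). The 2 overlapping genes therefore differed unequally between the treatments.

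Ddc, 32.4 kb from Grb10 in the same cluster, encodes the decarboxylase that makes dopamine and serotonin from their precursors. It had 4366, 5233 and 5522 counts with compound 1 and 23042, 18468 and 16764 with DMSO. All 3 treated libraries were below all DMSO libraries, and Ddc fell with a log2 fold change of -2.48 (standard error 0.14, adjusted p = 0.000241 in edgeR). The FPKM ratio of Grb10 to Ddc was 0.0397 ± 0.0065 with DMSO and 0.0699 ± 0.031 with compound 1. The other tested gene within 300 kb of Grb10 did not pass the test. Near the remaining members, Sf3b5, a splicing factor gene 51.3 kb from Plagl1, fell with a log2 fold change of -0.53 (standard error 0.10, adjusted p = 0.0189 in edgeR). Ctsd, the gene of the lysosomal protease cathepsin D 187 kb from H19, rose by 0.39 (standard error 0.07, adjusted p = 0.0127). Col1a2, 206 kb from Peg10, fell by 6.60 (standard error 1.50, adjusted p = 0.0307). It had few counts, at most 319 in any library. No protein-coding gene within 300 kb of Dlk1 or Meg3 had enough counts for a test.

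Sgce, which encodes ε-sarcoglycan of the muscle membrane complex, starts 98 bases from the silent Peg10 on the other strand. It was expressed, with 588, 1602 and 834 counts in the treated libraries and 118, 356 and 364 in the DMSO libraries. The groups did not overlap, but the spread was wide, and the log2 difference of 1.25 (standard error 0.54) did not pass the test (adjusted p = 0.193 in edgeR). Zim1, a zinc finger gene 7.44 kb from Peg3, had 724, 566 and 1030 counts with compound 1 and 104, 22 and 0 with DMSO. Its groups did not overlap either, and the log2 difference of 3.73 (standard error 1.44) did not pass the test (adjusted p = 0.146). Usp29, a deubiquitinase gene 146 bases from Peg3 on the other strand, overlapped between treatments at 14 to 192 counts (log2 fold change -0.30, standard error 0.90, adjusted p = 0.869). In the Igf2 and Cdkn1c domains, Kcnq1ot1, a noncoding RNA that silences genes in cis, had 679, 430 and 986 counts with compound 1 and 300, 256 and 461 with DMSO, with a log2 fold change of 0.51, a standard error of 0.50 and an adjusted p of 0.572. Thus Peg10 and its neighbour across 98 bases were at 0 and at up to 1602 counts in the same cells.

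**Figure D4:**
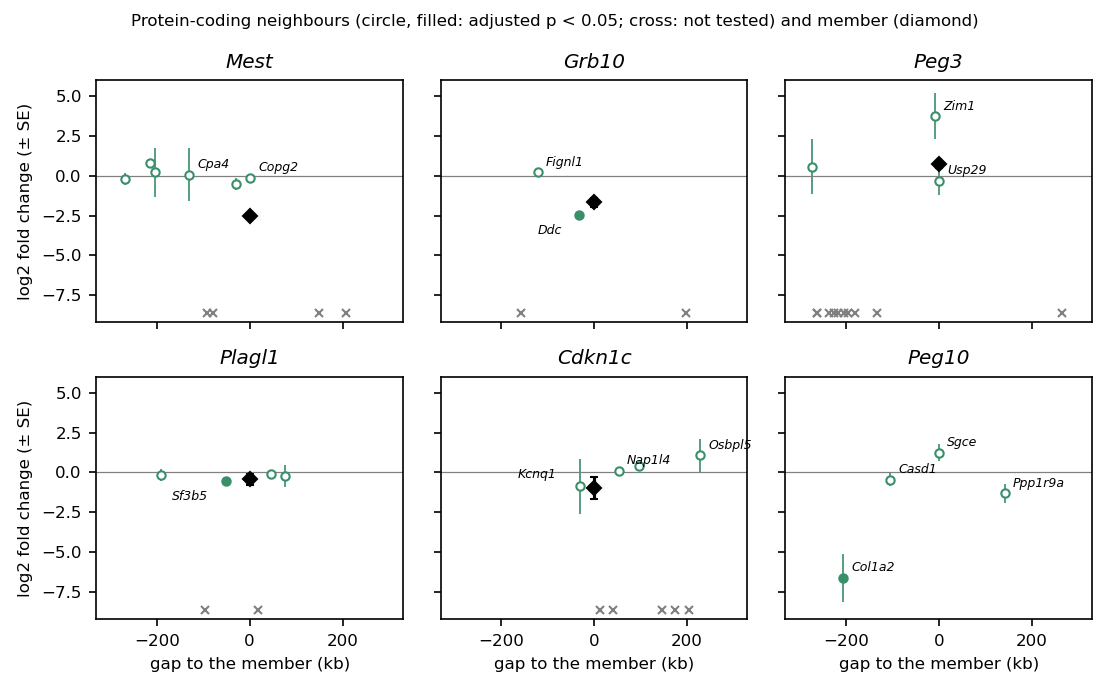
Log2 fold change of compound 1 over DMSO (y axis, ± standard error) against the gap in kb (x axis) for tested protein-coding genes reported here within 300 kb of 6 members (circles, filled where the adjusted p was under 0.05), the tested members themselves (black diamonds at 0, no test shown), and genes without a test as crosses at the bottom. Filled circles are Ddc near Grb10, Sf3b5 near Plagl1 and Col1a2 near Peg10.

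The wider set of imprinted genes was read from 2 lists. Beside them stand 14.8% of all tested genes called in edgeR, 6.98% higher and 7.8% lower, and a median log2 fold change of 0.04. Of 36 other imprinted genes of the members' clusters in the table, 17 were silent and 17 were tested, and 1 of the 17, Ddc, fell and none rose. The median log2 fold change was -0.26, and 10 of the 17 lay below 0. Of 35 imprinted genes elsewhere in the genome, 11 were silent and 22 were tested. Among these 2 rose, 2 fell and 18 did not pass the test, with a median of -0.29 and 17 of the 22 below 0, where 7263 of all 15082 tested genes lay below 0. Mest, at -2.55, lay below the lowest value of both lists, but it had been chosen for its decrease, so nothing is read from this. Those lowest values were -2.48 for Ddc and -2.27 for Herc3. Herc3 had 2 to 119 counts and did not pass the test (standard error 1.47, adjusted p = 0.377 in edgeR).

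The gene that fell furthest among the imprinted genes elsewhere was Nap1l5, a paternally expressed, intronless gene for a nucleosome assembly protein. It had 1584, 2182 and 3222 counts with compound 1 and 7331, 8398 and 6154 with DMSO, and a log2 fold change of -2.18 (standard error 0.25, adjusted p = 0.00251 in edgeR). Slc38a4, an amino acid transporter of placenta and liver, fell with a log2 fold change of -1.72 (standard error 0.36, adjusted p = 0.0238), from 2315 to 3523 counts in the DMSO libraries to 954 to 1734 in the treated ones. Both genes were lower in every treated library, and Slc38a4 lost its call (adjusted p 0.06 to 0.0812) without compound 1 library B or C or without any 1 DMSO library.

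Zrsr1, an intronless copy of a gene for a U2AF-related splicing factor, rose, with 3667, 3946 and 4275 counts with compound 1 and 948, 1385 and 1336 with DMSO. Its log2 fold change was 1.16 (standard error 0.22, adjusted p = 0.0175). It lies inside an intron of Commd1, which stood at -0.14 on the log2 scale (standard error 0.17, adjusted p = 0.674). Impact, a regulator of the GCN2 kinase, rose by 0.92 on the log2 scale (standard error 0.19, adjusted p = 0.0219), from 1520 to 1816 counts to 3268 to 6609. Zrsr1 lost its call without compound 1 library A or C or DMSO library B (adjusted p 0.057 to 0.0599), and Impact without any 1 library but compound 1 library A (adjusted p 0.0501 to 0.0777). With a block by column letter neither passed (adjusted p = 0.0531 and 0.0661 in edgeR). Of the imprinted genes known for growth, Igf2r, the receptor that clears IGF2, overlapped between treatments (log2 fold change -1.15, standard error 0.61, adjusted p = 0.282). Gnas, the stimulatory G protein subunit, was lower in every treated library and did not pass the test (log2 fold change -0.53, standard error 0.15, adjusted p = 0.0669). Ndn, Magel2, Peg12, Nnat and Rasgrf1 were at 0 in all libraries, and Snurf was also at 0 but has no exon base of its own.

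**Figure D5:**
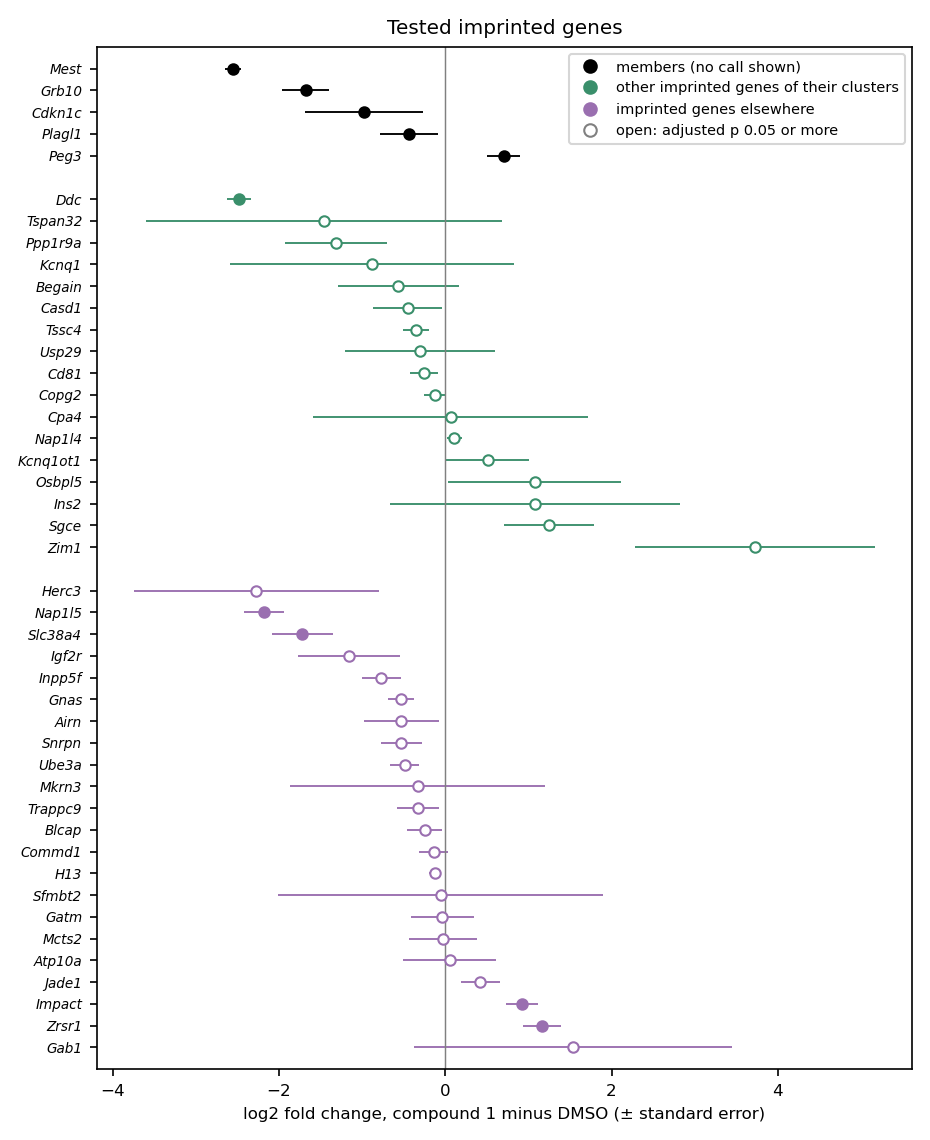
Log2 fold change of compound 1 over DMSO (x axis, ± standard error from edgeR) of the 5 tested members (black, no call shown), 17 other imprinted genes of their clusters (green) and 22 imprinted genes elsewhere (purple), with open circles where the adjusted p was 0.05 or more. Ddc, Nap1l5 and Slc38a4 are filled on the left and Zrsr1 and Impact on the right. Mest, which was chosen for its decrease, is the lowest value drawn.

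The pathways in which the members act were given from fixed lists of their other genes. Of all tested genes, 6.98% were called higher and 7.8% lower, and the median log2 fold change was 0.04. In insulin and IGF signalling, where Igf2 is a ligand and Grb10 a brake, 12 of 31 genes were silent and 16 were tested, of which none rose and 4 fell, with a median log2 fold change of -0.24. The 4 were Igfbp4, which binds IGFs outside the cell (-0.96, adjusted p = 0.0137), Pik3r1, the regulatory subunit of PI3-kinase (-1.08, adjusted p = 0.022), Akt2, its downstream kinase (-0.61, adjusted p = 0.0126), and Irs2, a docking protein of the insulin receptor (-0.58, adjusted p = 0.0235). The calls of Igfbp4 and Akt2 were each lost without 1 library, DMSO A (adjusted p = 0.0529) and DMSO C (adjusted p = 0.0512). That of Pik3r1 was lost without compound 1 library A or any 1 DMSO library (0.0622 to 0.0745), and that of Irs2 without any 1 library but compound 1 library C (0.051 to 0.0868). With a block by column letter Akt2 and Irs2 did not pass (adjusted p = 0.0513 and 0.0805 in edgeR). Igf1r was at 0 counts in all libraries, whereas Insr, the other receptor bound by GRB10, had 284 to 1507 counts with compound 1 and 72 to 359 with DMSO. The counts of Insr overlapped between the treatments (log2 fold change 1.50, standard error 0.86, adjusted p = 0.313). Of the ligands, Igf1 had at most 208 counts, Ins2 at most 140 and Ins1 none.

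Among inhibitors of cyclin-dependent kinases, the class of Cdkn1c, all 7 other genes were tested, 1 rose and 3 fell. Of all tested genes 6.98% rose and 7.8% fell. Cdkn1a, which encodes p21 and is a close relative of Cdkn1c, had 13751, 23004 and 17402 counts with compound 1 and 4041, 3529 and 2816 with DMSO. It rose with a log2 fold change of 1.83 (standard error 0.14, adjusted p = 0.000678 in edgeR). Cdkn2c, which encodes p18, fell by 1.30 on the log2 scale (standard error 0.12, adjusted p = 0.0012), and Cdkn2d, for p19, by 0.70 (standard error 0.14, adjusted p = 0.0213). Cdkn3, a phosphatase that acts on cyclin-dependent kinases and is made in dividing cells, fell by 1.96 (standard error 0.19, adjusted p = 0.0014). Of these 4 calls only that of Cdkn2d was lost when a library was left out, namely any 1 but compound 1 library B (adjusted p 0.0507 to 0.0742). Cdkn1b, for p27 and the other relative of Cdkn1c, overlapped between treatments (log2 fold change -0.40, adjusted p = 0.317). In counts, Cdkn1a thus outweighed Cdkn1c in both treatments, with 2816 as its lowest count and 555 as the highest of Cdkn1c.

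In the Notch pathway Dlk1 is a ligand without the usual receptor-binding domain. Of its 18 listed genes 11 were tested, 1 rose and none fell, beside 6.98% higher and 7.8% lower among all tested genes. The 1 was Hes1, a target and repressor of differentiation genes, with 2418, 2739 and 3225 counts against 1022, 766 and 693 (log2 fold change 1.23, standard error 0.23, adjusted p = 0.0164). Hes1 lost its call without compound 1 library A or C or DMSO library B or C (adjusted p 0.0513 to 0.0657). The relative of Dlk1, Dlk2, had at most 58 counts. Notch1 and Jag1 were at 0 in all libraries. Among 19 relatives of the members by sequence, 11 were tested and Cdkn1a was the only one past the test, while Plag1, the closest relative of Plagl1, was silent, as was Grb14, a relative of Grb10.

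Of 14 genes that set or keep imprints, 11 were tested, 1 rose and none fell. Among all tested genes 6.98% rose and 7.8% fell. Dnmt3b, a methyltransferase that places new DNA methylation, had 702, 992 and 1321 counts with compound 1 and 104, 272 and 129 with DMSO. It rose with a log2 fold change of 2.06 (standard error 0.46, adjusted p = 0.0293 in edgeR). The call was lost without any 1 library but DMSO library B (adjusted p 0.0585 to 0.0981), and with a block by column letter (adjusted p = 0.0724). Dnmt3a was also higher in every treated library without passing the test (0.70, adjusted p = 0.0715). Dnmt1, which copies methylation onto new DNA, and its guide Uhrf1 overlapped between treatments, at log2 fold changes of 0.03 (standard error 0.13) and -0.03 (standard error 0.11). Trim28, the corepressor recruited by ZFP57, also overlapped (0.13, standard error 0.13). Zfp57, Dnmt3l and Dppa3, which act in germ cells and the early embryo, were silent. DNA methylation was not measured in these samples.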

How the data were processed

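RNA from αTC1 cells was sequenced after Smart-seq2 amplification and Nextera XT preparation, in 3 libraries with compound 1 and 3 with DMSO. The authors aligned reads with STAR (2.7.9a in the submitters' processing notes, which also list Picard 2.19.2) to GRCm38 and deposited counts, whole numbers per gene summed over annotated transcripts irrespective of strand and without normalization. The authors also deposited FPKM values, scaled per kilobase. For 98.2% of 23783 genes these used the full exon length within 0.1%. By identifier 55141 of 55487 genes matched GENCODE vM21, 99.4% of them at identical coordinates, and positions and exons were taken from that release.

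Counts were analysed with edgeR 4.0.16 in R 4.3.3. Genes were kept by filterByExpr (minimum count 10, minimum total 15), normalized by TMM and tested by quasi-likelihood, with p-values adjusted over all 15082 genes after Benjamini and Hochberg. A gene rose or fell at an adjusted p under 0.05. The script was tested on simulated data. The smallest p that exact permutation allows with 3 against 3 is 0.1. The floor of 3 counts covers counting error only, while standard errors include the spread between libraries. Alternatives were DESeq2 1.42.0, other scalings and filters, limma 3.58.1 on log2(FPKM + 1) or log2(FPKM + 0.1), thinning, a block and leaving out each library.

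The members and gene lists were chosen with earlier results of these data known. The text names all members, from each list of imprinted genes, pathways, relatives and imprint keepers the genes with an adjusted p under 0.05 (at most 8) and those adjoining a member, and the 3 genes nearest to Mest in mean-centred log2 CPM. Other genes were named after their values were seen. Column letters could not be matched to replicate numbers in the labels. Same-letter libraries did not deviate together (correlations 0.00274 to 0.0251), and the main fit has no pairing, although a replicate's samples were handled together. Replicates differed by more than sampling noise (chi-square per degree of freedom 76.5 to 156). Some genes are not reported here.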

Additional observations from a re-analysis of the deposited data

How the results depend on the processing

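Mest had a log2 fold change of -2.63 to -2.35 over 16 alternatives to edgeR with TMM, Grb10 -1.99 to -1.28, Peg3 0.54 to 0.91, Plagl1 -0.64 to -0.17 and Cdkn1c -2.01 to -0.58, and none of the 5 changed direction. An FPKM below 0.1 in every library also gave 4 silent members, which it had to include because they were at 0 counts. Meg3 lay just above that limit, at 0.111 in compound 1 library C. The number of members past the threshold was 2 or 3. Peg3 joined Mest and Grb10 with DESeq2, with library size only, with at least 10 counts in every library and with the block. In these settings, in that order, 4276 of 16373, 2426 of 15082, 2585 of 12182 and 1232 of 15082 tested genes were called. The main fit called 2230 of 15082. With DESeq2 4276 of all genes were called in place of 2230, 2 imprinted genes of the members' clusters in place of 1 and 8 imprinted genes elsewhere in place of 4. With limma on log2(FPKM + 1) and no minimum, 2 genes of the members' clusters were called. With the replicate block by column letter, 1232 genes and 2 imprinted genes elsewhere were called. A replicate's samples were handled together in the study, but which letters belong to 1 replicate is not given in the sources used here, and same-letter libraries did not deviate together. Leaving out each library in turn gave 1253 to 1556 genes, 1 to 2 genes of the members' clusters and 1 to 6 imprinted genes elsewhere.

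Ddc, Nap1l5, Cdkn1a, Cdkn2c and Cdkn3 passed the test under all 16 alternatives. The other called genes of the imprinted, pathway and imprint-keeping lists lost their call in 1 to 5 of the fits without a library, as given beside each, and in none did the direction turn. Cell type markers, Sf3b5 and Ctsd were not followed under the alternatives. With the replicate block Akt2, Irs2, Dnmt3b, Zrsr1 and Impact also lost their calls, with library size only Irs2 and Cdkn2d did, and with limma on log2(FPKM + 1) and no minimum Dnmt3b did. Zim1 was called with DESeq2 and with limma without a minimum. Of the genes that were not called, 2 reversed, Copg2 at 0.080 with library size only, a scaling that moved the median of all tested genes from 0.04 to 0.25, and Usp29, which ranged from -0.87 to 0.21 over the fits that left out a library and was positive without G786-1089 replicate A. The causes were not tested. Meg3 and Igf1 had few counts, at most 166 and 208 in any library, whereas Mest had at least 9641. The part of depth in the low counts was not tested. No paired fit beyond the letters was made.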

Other observations

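Values that belong to none of the comparisons concern the small RNAs inside the members. Mir335, a microRNA gene within an intron of Mest, was at 0 in every treated library, while DMSO libraries A, B and C held 1, 6 and 0 counts. The library protocol does not select small RNAs, so these counts do not measure the mature microRNA.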
